A study of Mus musculus with 6 samples.

Results

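The interleukins and interleukin receptors described here are 68 of the 19938 genes measured with a single gene symbol in whole mouse colon. They were taken as every gene whose symbol starts with Il and a digit, which 76 genes did, less 8 measured genes left out by name, which are interleukin-1 family genes such as Il1b and the IL-17 family ligand Il25. The choice went by symbol and used no difference between mutants and controls, and for a gene with several rows the row with the highest mean was kept. The mutants were 3 VilCre;Ihhflox/flox mice, in which a Cre recombinase under the villin promoter, active in intestinal epithelium, deletes floxed Ihh, which encodes the morphogen Indian hedgehog. They were compared with 3 control littermates, labelled wild type, for which no further allele is given. Mutant and control of one number were littermates, giving 3 litters. The labels put the mice at postnatal day 12 in one place and at days 9 to 12 in another.

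Interleukins are small secreted proteins by which leukocytes, epithelium and stroma signal to each other. Most act through receptors of paired chains, several of which are shared between ligands (the common gamma chain, gp130, the IL-10 receptor beta chain). Not all do, and IL-34 is a ligand of the Csf1 receptor. Most receptors of paired chains signal through Jak kinases and Stat factors, while IL-17 and IL-1 type receptors use adaptors that lead to NF-kB. In the gut, IL-22 and IL-17 induce antimicrobial proteins and neutrophil chemokines in epithelium, IL-10 restrains inflammation, and IL-4, IL-13 and IL-25 belong to type 2 responses. Decoys such as IL-22 binding protein soak up a ligand without signalling.

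One Affymetrix Mouse Gene 1.0 ST array was run per mouse, and values are on the log2 scale after RMA, with every change given as mutant minus control. Array medians lay between 7.10 and 7.14, and correlations between arrays over rows ranged from 0.985 to 0.994. Ihh itself was 8.37, 8.22 and 8.22 in mutants 1 to 3, against 8.5, 8.54 and 8.68 in controls 1 to 3, a difference of -0.30 ± 0.09 (SE; limma adjusted p = 0.139) that missed the threshold. The hedgehog receptor and target gene Ptch1 fell by 1.44 ± 0.09 (SE; adjusted p = 0.000493) and the target Gli1 by 0.78 ± 0.08 (adjusted p = 0.00355). Xist, the transcript of the inactive X chromosome in females, was 6.41, 12.03 and 11.92 in mutants 1 to 3, against 11.96, 5.96 and 5.83 in controls 1 to 3, so the littermates in each litter had opposite Xist levels, and the litters did not all run the same way. Colon epithelium markers had a mean level of 11.6 to 11.8 in mutants and 11.6 to 11.7 in controls, and 0 of 10 measured passed (limma; 3 had an unadjusted p under 0.05).

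Of the 68 genes, 1 fell, 0 rose and 67 did not pass an adjusted p of 0.05 in limma with the litter as a block. That is 1.47% of them, beside 3.77% of all 19938 genes tested (1.66% higher and 2.11% lower). At an unadjusted p under 0.05 there were 3 with higher and 9 with lower values in mutants, 17.6% in all, beside 15.1% of all genes. The median change was -0.01, against 0.01 over all genes, and 33 of the 68 changes were above 0. The same direction held in 3 litters for 24 of the 68 (35.3%, beside 35.9% of all genes), with 10 higher (all genes 18.8%) and 14 lower (all genes 17.1%). Mutant and control values did not overlap for 11 (16.2%, beside 19.8%). A change beyond 0.5 in size was seen in 1 member, Il22ra2, and in 3.27% of all genes. By direction, lower values at an unadjusted p under 0.05 were seen in 13.2% of members and 8.03% of all genes, and higher ones in 4.41% of members and 7.05% of all genes. Of the 68 members 34 (50%) were among the dimmest 30% of genes (a mean below 6.39), and the shares differed with brightness. Among these dim members 17.6% had an unadjusted p under 0.05, beside 8.73% of all dim genes, 41.2% kept one direction in 3 litters, beside 27.4%, and 20.6% did not overlap, beside 12.5%. Among the brighter members these shares were 17.6%, beside 17.8% of brighter genes, 29.4%, beside 39.6%, and 11.8%, beside 22.9%. None of these differences in share was tested. The plot of all members by litter shows most of them scattered about 0.

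**Figure D1:**
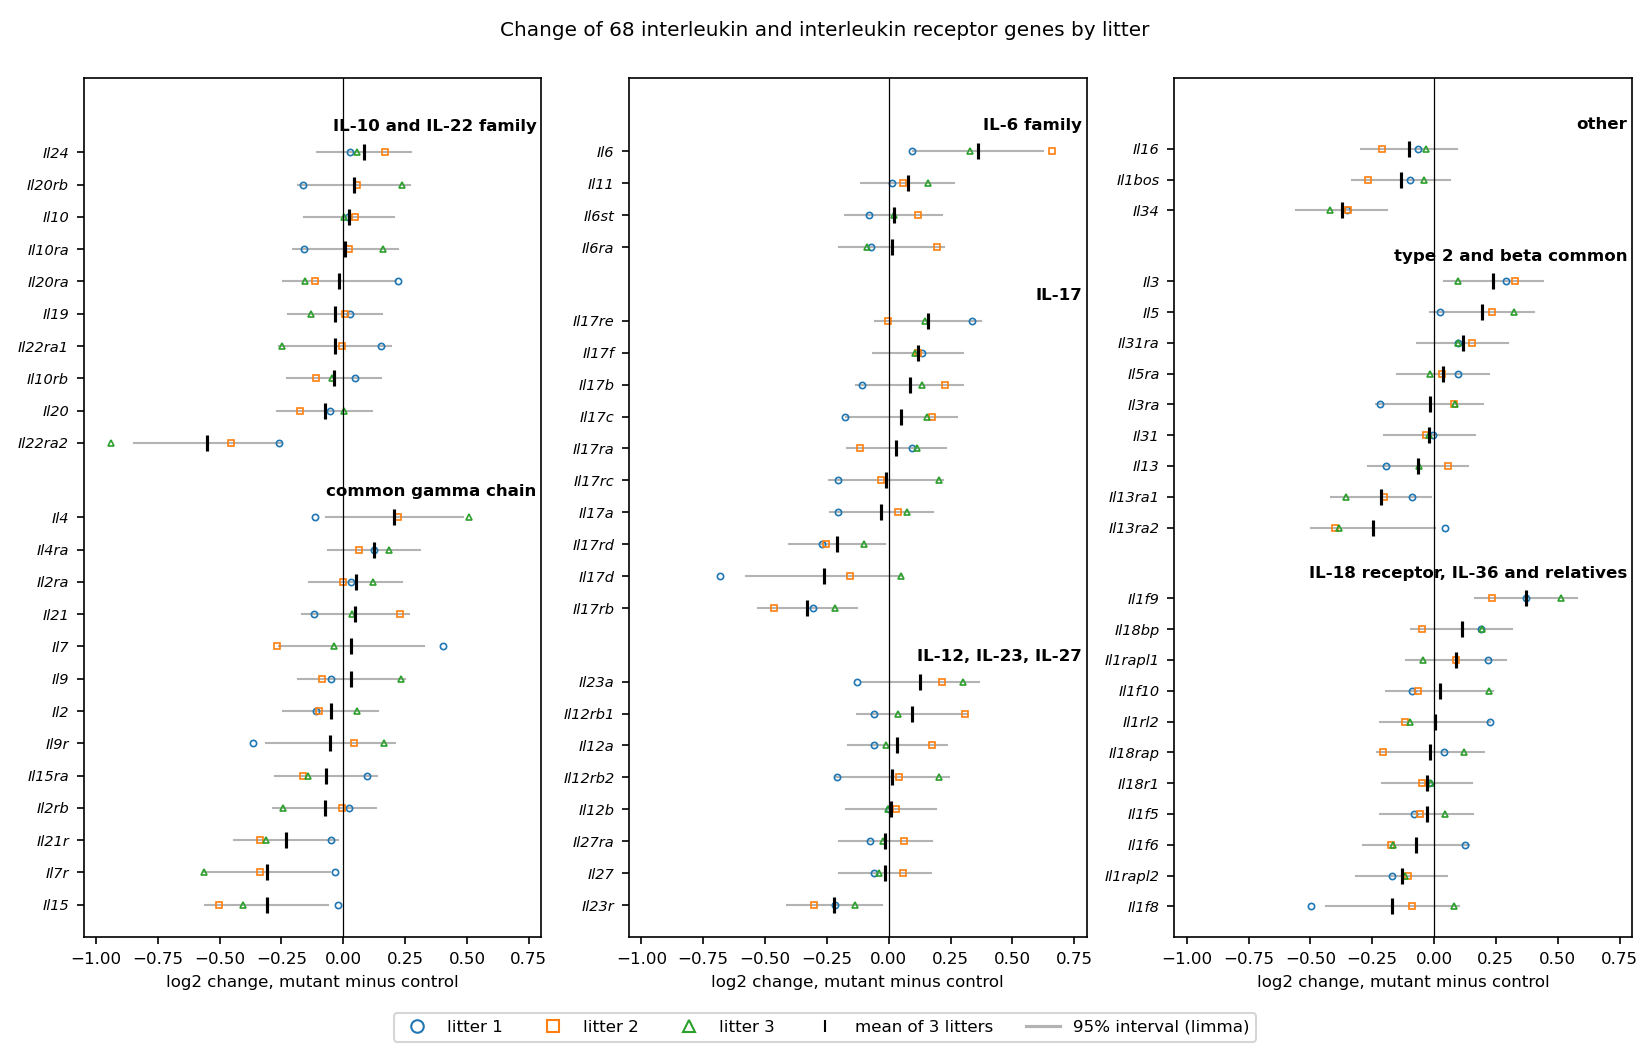
Log2 change (x axis, mutant minus control) of each of the 68 genes (y axis), grouped by receptor or ligand family. Open symbols are the 3 litters, the black bar is their mean and the grey line is the 95% interval from limma. Most intervals cross 0, and means run from -0.55 (Il22ra2) to 0.37 (Il1f9).

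Il34, the gene of IL-34, a ligand of the Csf1 receptor that maintains some tissue macrophages, was the member that fell. It had 6.97, 7.08 and 6.99 in mutants 1 to 3, against 7.33, 7.42 and 7.41 in controls 1 to 3. The mutants were all lower and lay close together, as did the controls. The change was -0.37 ± 0.08 (SE, n = 3 each; 1.3-fold lower; 95% interval -0.56 to -0.19; limma adjusted p = 0.0461), and it was -0.35, -0.35 and -0.42 in litters 1, 2 and 3. The call was narrow: it ended without litter 1 (adjusted p = 0.0658), without litter 2 (0.114), without litter 3 (0.243) and after quantile normalization (0.0539), and over 15 alternatives the adjusted p ran from 0.0194 to 0.434 with a change between -0.39 and -0.35.

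The other ligand of the same receptor, Csf1, also fell, by 0.49 ± 0.09 (adjusted p = 0.0217, and 0.0697 without litter 3). It had 7.56, 7.64 and 7.67 in mutants 1 to 3, against 8.16, 8.02 and 8.16 in controls 1 to 3. The receptor gene Csf1r, a macrophage marker, had 8.43, 8.28 and 8.65 in mutants 1 to 3, against 8.90, 8.73 and 8.85 in controls 1 to 3, a change of -0.38 ± 0.09 that did not pass (adjusted p = 0.0670). For both genes the groups did not overlap. Of 12 macrophage and dendritic cell markers 2 rose (Cd14 and Itgam), 1 fell (Cx3cr1) and 9 did not pass, and their mean level was 7.83 to 7.93 in mutants and 8.0 to 8.04 in controls. Of 7 fibroblast markers 2 fell, with a mean level of 11.3 to 11.6 in mutants and 11.8 to 11.9 in controls. In whole tissue, fewer cells of a type and less RNA per cell cannot be told apart, and the part of these cell types in the Il34 result was not tested.

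**Figure D2:**
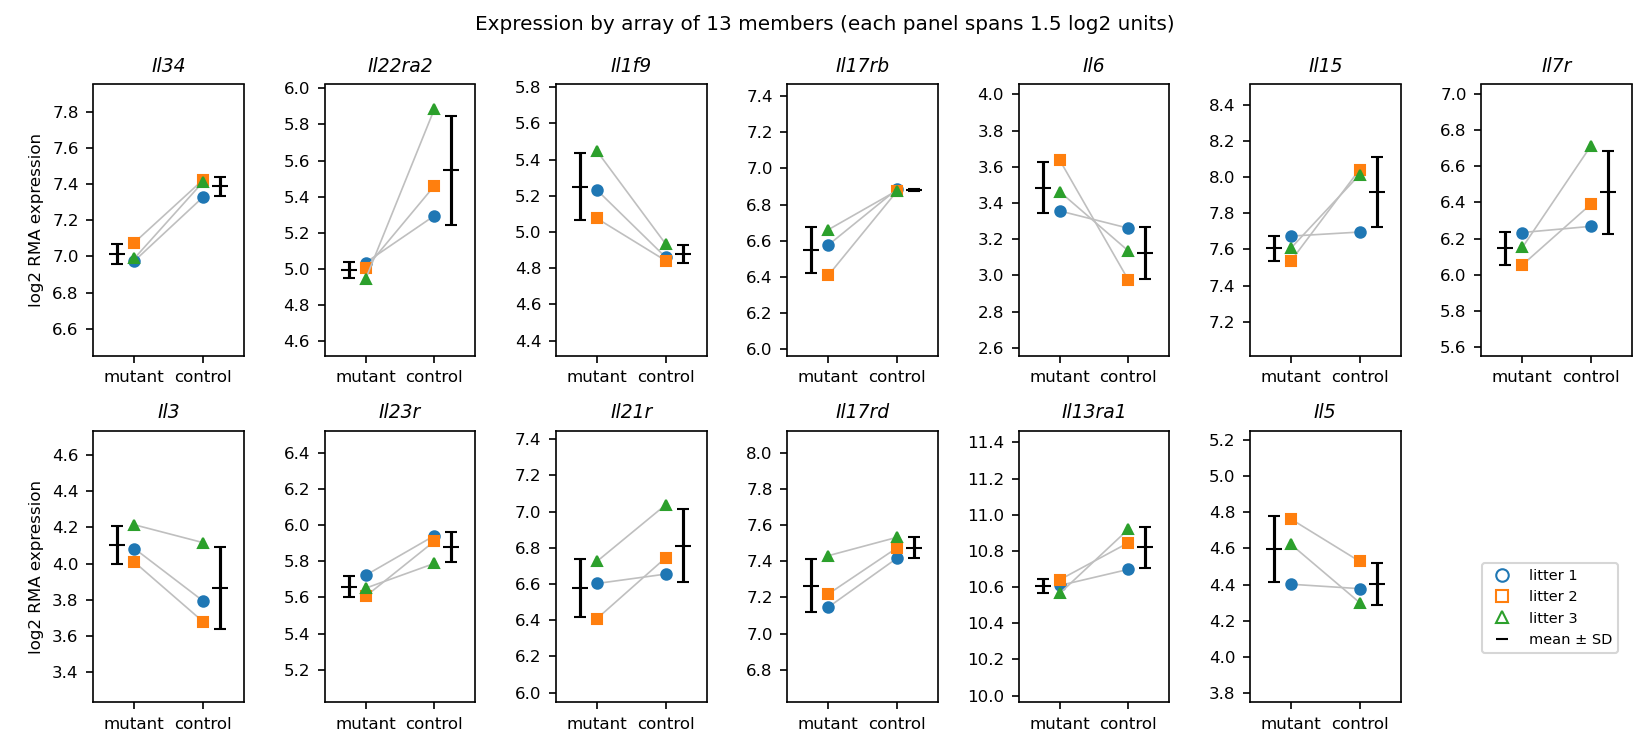
Log2 RMA expression (y axis) in mutants (left) and controls (right) for Il34 and the 12 further genes with the smallest p among those with a change of one sign in all 3 litters. Symbols mark litters, grey lines join littermates and black bars give the mean ± SD (n = 3). Il34 mutants sit between 6.97 and 7.08, all below the controls.

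The member with the largest change was Il22ra2, which encodes IL-22 binding protein, a soluble decoy made by dendritic cells. It had 5.04, 5.0 and 4.95 in mutants 1 to 3, against 5.29, 5.46 and 5.88 in controls 1 to 3. The mutants were uniform and below every control, and the spread lay in the controls (SD 0.303, against 0.0460 in mutants). The change of -0.55 ± 0.13 (95% interval -0.85 to -0.25) did not pass, with limma adjusted p = 0.0627, but it passed without litter 1 (adjusted p = 0.0417), without litter 2 (0.0246) and with array weights (0.0159). Its mean signal was among the dimmest 30% of genes, where no background level was available and the size of a change is uncertain.

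None of the other 9 genes of the IL-10 and IL-22 family passed, and 0 of these had an unadjusted p under 0.05 (limma). Il10rb, the receptor chain that IL-10 and IL-22 share, had 10.13, 9.995 and 10.08 in mutants 1 to 3, against 10.08, 10.11 and 10.13 in controls 1 to 3 (-0.04 ± 0.08, 95% interval -0.23 to 0.15). The groups overlapped. Il22ra1, the chain that makes epithelium responsive to IL-22, stood at -0.03 ± 0.10, with 0.15 in litter 1 and -0.25 in litter 3, and a second row for this gene gave 0.00. Il10, Il19, Il20 and Il24, ligands of the family, had changes from -0.08 (Il20) to 0.08 (Il24). The row that carries Il22 is shared with other symbols and was not analysed here. Il28a, Il28b and Il28ra were not found under these names.

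Of the 10 genes of the IL-17 group, 0 passed and 2 had an unadjusted p under 0.05, both receptors with lower values in mutants. Of all genes 8.03% were lower at that threshold. Il17rb, the receptor chain for IL-25 found on tuft cells and type 2 innate lymphoid cells, had 6.58, 6.41 and 6.66 in mutants 1 to 3, against 6.88, 6.87 and 6.88 in controls 1 to 3. The controls were nearly identical and the mutants all lower, with a change of -0.33 ± 0.09 that did not pass (adjusted p = 0.0924). Il25, its ligand, had 6.51, 6.40 and 6.52 in mutants 1 to 3, against 6.14, 6.48 and 6.61 in controls 1 to 3, and the groups overlapped (0.06 ± 0.11). Of 6 tuft cell markers 0 passed, and 0 had an unadjusted p under 0.05 (limma), with a mean level of 6.85 to 7.05 in mutants and 6.87 to 6.97 in controls.

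Il17rd, a receptor-like protein that also restrains fibroblast growth factor signalling, had 7.15, 7.22 and 7.43 in mutants 1 to 3, against 7.42, 7.47 and 7.53 in controls 1 to 3. The highest mutant passed the lowest control, and the change of -0.21 ± 0.08 did not pass (adjusted p = 0.283), while a second row for the gene gave -0.22. Il17rc, the partner chain of the IL-17A and IL-17F receptor, had 8.62, 8.76 and 8.83 in mutants 1 to 3, against 8.83, 8.79 and 8.63 in controls 1 to 3, and the groups overlapped (-0.01 ± 0.10). The ligands Il17a and Il17f, made by helper T cells and innate lymphoid cells, stood at -0.03 ± 0.09 (95% interval -0.24 to 0.18) and 0.12 ± 0.08 (-0.06 to 0.30). Il17f was higher in the mutant of each litter, by 0.13, 0.12 and 0.11, without passing (adjusted p = 0.576). Il17d stood at -0.26 ± 0.14, most of it from litter 1 (-0.68, against -0.16 and 0.05 in litters 2 and 3). It passed only where the level of Xist and the litter were both in the model, among 15 alternatives, a fit with fewer residual degrees of freedom.

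Among the 11 genes of IL-18 receptors, IL-36 and relatives, 0 passed and 1 had an unadjusted p under 0.05. This was Il1f9, the gene of IL-36 gamma, an alarm cytokine that epithelia and macrophages make, with the largest positive change of all members. It had 5.23, 5.08 and 5.45 in mutants 1 to 3, against 4.86, 4.84 and 4.94 in controls 1 to 3. The mutants were all higher, by 0.37 ± 0.09 (95% interval 0.17 to 0.58; adjusted p = 0.0668), and among its alternatives it passed with array weights alone (0.0354). The gene was among the dimmest 30%. Il1rl2, the receptor of IL-36, stood at 0.00 ± 0.10, and Il1f5, its antagonist, at -0.03 ± 0.08. Il18bp, which neutralises IL-18, had 8.06, 8.02 and 7.98 in mutants 1 to 3, against 7.87, 8.07 and 7.79 in controls 1 to 3 (0.11 ± 0.09), and the groups overlapped.

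The promoters of the member with the largest positive change, Il1f9, and of the IL-25 receptor gene Il17rb are shown for the letters that precede each start. No promoter was listed for Il34 or Il22ra2, the members with the smallest p. The changes of Il1f9 and Il17rb had opposite signs in all 3 litters, but neither gene passed. A link between a motif and the direction of a change was not tested. The sequences are from RefSeq on GRCm38.p6, 250 bases before the start, 5′ to 3′ on the gene's strand, with capitals for a motif match. Il1f9 lies at chr2:24186226-24186475 on the + strand and holds a STAT motif (TTCNNNGAA), while Il17rb lies at chr14:30008897-30009146 on the - strand and holds an AP-1 motif (TGANTCA).
Il1f9: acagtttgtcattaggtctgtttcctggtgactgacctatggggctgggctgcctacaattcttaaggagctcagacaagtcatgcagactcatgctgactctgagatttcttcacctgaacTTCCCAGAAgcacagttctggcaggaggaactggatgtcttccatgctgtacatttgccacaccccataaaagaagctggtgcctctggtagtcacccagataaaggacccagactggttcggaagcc
Il17rb: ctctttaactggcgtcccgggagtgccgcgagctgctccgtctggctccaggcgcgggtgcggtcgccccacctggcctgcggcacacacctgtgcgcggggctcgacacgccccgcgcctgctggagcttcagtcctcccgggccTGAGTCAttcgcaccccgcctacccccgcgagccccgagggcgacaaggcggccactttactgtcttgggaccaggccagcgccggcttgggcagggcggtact
Both strands were searched for the STAT, AP-1 and NF-kB motifs, and the matches shown do not overlap another motif. Promoters were listed for 52 of the 68 members. A STAT motif was in 6 of the 52 (11.5%, beside 7.18% of 27025 promoters of the same length), an AP-1 motif in 10 (19.2%, beside 6.87%) and an NF-kB motif in 4 (7.69%, beside 7.01%). A match describes letters in the window and no binding was measured.

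Il6, the inflammatory cytokine that signals through gp130, had 3.36, 3.64 and 3.46 in mutants 1 to 3, against 3.26, 2.98 and 3.14 in controls 1 to 3. The mutants were all higher, by 0.36 ± 0.11, which did not pass (adjusted p = 0.159, and 0.0478 with array weights). Its mean signal of 3.31 was the lowest of all members, with only 1.42% of all genes dimmer, so the size of the change is uncertain. The change was 0.10 in litter 1 and 0.66 in litter 2. Il6st, the gene of gp130, had 10.66, 10.75 and 10.74 in mutants 1 to 3, against 10.74, 10.63 and 10.72 in controls 1 to 3 (0.02 ± 0.08), and the groups overlapped. Il6ra and Il11 stood at 0.01 ± 0.09 and 0.08 ± 0.08. Of the 4 genes of this family 0 passed (limma) and 1 had an unadjusted p under 0.05. The receptor genes Il11ra1 and Il11ra2 were not found with a single symbol and are not among them.

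The common gamma chain group holds growth and survival factors of lymphocytes and their receptors. Il2rg, the gene of the common gamma chain itself, was not found with a single symbol and is not among its members here. Of its 13 genes 0 passed (limma), 6 changes were above 0 and 7 below, and the median was -0.05. Unadjusted p was under 0.05 for 3, each with lower values in mutants, beside 8.03% of all genes with lower values. Il15, a cytokine of epithelium and myeloid cells that sustains intraepithelial lymphocytes, had 7.67, 7.54 and 7.61 in mutants 1 to 3, against 7.70, 8.04 and 8.01 in controls 1 to 3. The mutants were all lower, but litter 1 differed by -0.02 and litters 2 and 3 by -0.50 and -0.41, and the change of -0.31 ± 0.11 did not pass (adjusted p = 0.208). Among 15 alternatives, the fits with Xist included, it passed in 2. These were without litter 1 (adjusted p = 0.0430) and with array weights, which give that litter a low weight (0.0451). Litter 1 was also the litter with a male mutant and a female control, and the part of sex was not tested.

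Il7r, the IL-7 receptor of T cells and innate lymphoid cells, had 6.23, 6.05 and 6.15 in mutants 1 to 3, against 6.27, 6.39 and 6.71 in controls 1 to 3 (-0.31 ± 0.11, adjusted p = 0.220). Il21r, the IL-21 receptor of lymphocytes, had 6.60, 6.41 and 6.73 in mutants 1 to 3, against 6.65, 6.74 and 7.04 in controls 1 to 3 (-0.23 ± 0.09, adjusted p = 0.272). Il7r mutants lay below all controls, in the dimmest 30% of genes, and those of Il21r overlapped the controls. Control 3 was the highest array for both genes. The same array was the highest for lymphocyte markers, with a mean level of 6.73 for 8 T cell genes and 6.59 for 6 B and plasma cell genes, where the other controls had 6.39 to 6.41 and 5.73 to 5.90. The T cell list had 6.34 to 6.49 in mutants and 6.39 to 6.73 in controls, with 1 of 8 lower (Cd4), and its part in the receptor values was not tested.

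Il4ra, the chain through which IL-4 and IL-13 signal, had 9.43, 9.41 and 9.31 in mutants 1 to 3, against 9.31, 9.35 and 9.12 in controls 1 to 3. It was higher in the mutant of each litter, but the groups overlapped and the change of 0.12 ± 0.08 did not pass (adjusted p = 0.569). The other 9 genes of this group, among them the ligands Il2, Il4, Il7, Il9 and Il21, had changes from -0.08 (Il2rb) to 0.21 (Il4). In Il4 the litters differed in sign, with -0.11, 0.22 and 0.51.

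In the group of IL-12, IL-23 and IL-27, 0 of 8 genes passed (limma) and 1 had an unadjusted p under 0.05. Il23r, the IL-23 receptor of type 3 innate lymphoid and helper T cells, had 5.72, 5.61 and 5.65 in mutants 1 to 3, against 5.94, 5.91 and 5.79 in controls 1 to 3. The mutants were all lower (-0.22 ± 0.08), but the gene was dim and the change did not pass (adjusted p = 0.252). Of 4 measured markers of those cells 0 passed (limma), and 1, Ccr6, had an unadjusted p under 0.05 with lower values in mutants. Their mean level was 6.40 to 6.58 in mutants and 6.51 to 6.54 in controls. Il23a and Il12b, the subunits of IL-23, stood at 0.13 ± 0.10 and 0.01 ± 0.08. Il27 had 7.12, 7.27 and 7.20 in mutants 1 to 3, against 7.18, 7.21 and 7.24 in controls 1 to 3, and the groups overlapped (-0.01 ± 0.08).

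Among 9 type 2 and beta common chain genes 0 passed (limma), and 1 had an unadjusted p under 0.05 in each direction. Il13ra1, which pairs with Il4ra in non-immune cells, had 10.61, 10.64 and 10.56 in mutants 1 to 3, against 10.70, 10.84 and 10.92 in controls 1 to 3. The mutants were uniform and below all controls (-0.22 ± 0.09, adjusted p = 0.295). The gene is on the X chromosome, and with the level of Xist and the litter in the model its change was -0.18. Il13ra2, the IL-13 decoy receptor, had 4.11, 4.09 and 3.98 in mutants 1 to 3, against 4.06, 4.49 and 4.37 in controls 1 to 3 (-0.25 ± 0.11, adjusted p = 0.338). Here mutant 1 lay above control 1 while litters 2 and 3 went the other way. This gene is also on the X chromosome. The sexes of the mice were split in the same manner, and their part was not tested. Over 14 alternatives, the fits with Xist among them, the Il13ra2 change lay between -0.39 and -0.16, and 0 passed.

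Il3, a growth factor of mast cells and basophils, had 4.08, 4.01 and 4.21 in mutants 1 to 3, against 3.79, 3.68 and 4.12 in controls 1 to 3 (0.24 ± 0.09, adjusted p = 0.230). Il5, the eosinophil growth factor, had 4.40, 4.76 and 4.62 in mutants 1 to 3, against 4.38, 4.53 and 4.30 in controls 1 to 3 (0.19 ± 0.09, adjusted p = 0.380). Both were dim, both were higher in the mutant of each litter, and the groups overlapped in each. Of 4 eosinophil markers 0 passed, and 0 had an unadjusted p under 0.05 (limma). Of 9 mast cell markers 2 fell, the proteases Mcpt1 and Mcpt2, and the mean level was 5.67 to 5.80 in mutants and 5.90 to 6.17 in controls. Il13 stood at -0.07 ± 0.09.

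The remaining members of no shared family were Il16, at -0.10 ± 0.08, and Il1bos, a transcript from the strand opposite Il1b, at -0.13 ± 0.09. Il1b itself rose by 1.81 ± 0.12 (adjusted p = 0.000664). Members often lie side by side in the genome, with 17 pairs of adjacent protein-coding genes among 29 of them, and 5 of the 17 pairs had changes of the same sign. Il22ra2 (-0.55) is next to Il20ra (-0.02), and Il1f9 (0.37) lies between Il1f8 (-0.17) and Il1f6 (-0.07). Il23r (-0.22) is next to Il12rb2 (0.01). In these cases the adjacent member had a much smaller change or one of the other sign.

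By role, 31 ligands had a median change of 0.02, with 1 fall, 0 rises and unadjusted p under 0.05 for 3 higher and 2 lower. For 32 receptors the median was -0.01, 0 passed (limma), and 6 had an unadjusted p under 0.05, all with lower values in mutants. Over all genes 8.03% were lower and 7.05% higher at that threshold, and the direction among receptors was not tested. The 6 were Il17rb, Il7r, Il23r, Il21r, Il17rd and Il13ra1. The widths of the 95% intervals follow from a median SE of 0.09 over members, so changes well inside them were not detectable with 3 arrays a group. These intervals are not adjusted for the number of genes, and passing an adjusted p needed more than an interval clear of 0. Il22ra2 (-0.55), Il17rb (-0.33) and Il15 (-0.31) had intervals wholly below 0 and did not pass. Array signals near background are known to understate changes.

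Genes further along the same pathways are given beside the members. Of 15 partner ligands and receptors outside the family name, 1 rose and 1 fell. Osmr, the oncostatin M receptor, which pairs with gp130, had 8.82, 8.87 and 8.62 in mutants 1 to 3, against 7.96, 7.90 and 8.06 in controls 1 to 3. It rose by 0.80 ± 0.10 (adjusted p = 0.00649), with no overlap, and Csf1, described above, was the one that fell. Of 22 Jak, Stat and inhibitor genes 1 rose, Socs3, a feedback inhibitor that Stat3 induces. Socs3 had 8.48, 8.55 and 8.53 in mutants 1 to 3, against 8.06, 8.09 and 7.87 in controls 1 to 3 (0.51 ± 0.09, adjusted p = 0.0205, but 0.102 without litter 3 and 0.103 as the mean of its rows). Of 8 adaptors of IL-17 and IL-1 type receptors 1 rose, Irak3, an inhibitor of that signalling (0.49 ± 0.09, adjusted p = 0.0223).

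Genes known to respond to IL-22 or IL-17 in gut epithelium were mostly higher in mutants. Of 17 measured, 13 rose, 0 fell and 4 did not pass, with a median change of 0.66. Reg3b, an antimicrobial lectin, had 10.8, 12.7 and 11.995 in mutants 1 to 3, against 8.26, 9.57 and 9.81 in controls 1 to 3 (2.64 ± 0.16, adjusted p = 0.000493). Reg3g, its relative, rose by 2.51 ± 0.24 (adjusted p = 0.00233, but 0.0839 without the litter block and 0.0583 with litter as a random block), and Cxcl5, a neutrophil chemokine, by 1.33 ± 0.13 (adjusted p = 0.00258). The list was written with earlier results of these data known, so its count is no independent evidence of direction, and other signals are known to induce many of these genes. With the Xist level in the model and no litter block 8 of the 17 passed, and 0 did in the ordinary paired test or over all rows of the table, where the calls of Osmr, Csf1, Socs3 and Irak3 also ended.

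Neutrophil markers were higher in mutants beside this list. Of 10 such genes 5 rose and 0 fell (limma; 6 and 0 at an unadjusted p under 0.05), S100a8 and S100a9 standing in both lists, with a mean level of 6.22 to 6.62 in mutants and 5.73 to 5.84 in controls. Of 8 small intestinal epithelium markers 2 rose (Fabp2 and Slc10a2) and 6 did not pass, with a mean level of 7.84 to 8.18 in mutants and 7.24 to 7.60 in controls. The part of either in the response genes was not tested. Of 11 genes that respond to IL-4 or IL-13, 1 rose and 2 fell. Retnlb, a goblet cell antimicrobial protein, rose by 2.44 ± 0.34 (adjusted p = 0.00910, but 0.169 with a trended, robust variance), while Clca1, a mucus protein, fell by 1.11 ± 0.15 (adjusted p = 0.00934) and the matrix protein gene Postn by 0.57 ± 0.09 (adjusted p = 0.0146). The plot of members beside these lists sets the narrow spread of ligands and receptors against the wide one of the response genes, a difference that was not tested.

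**Figure D3:**
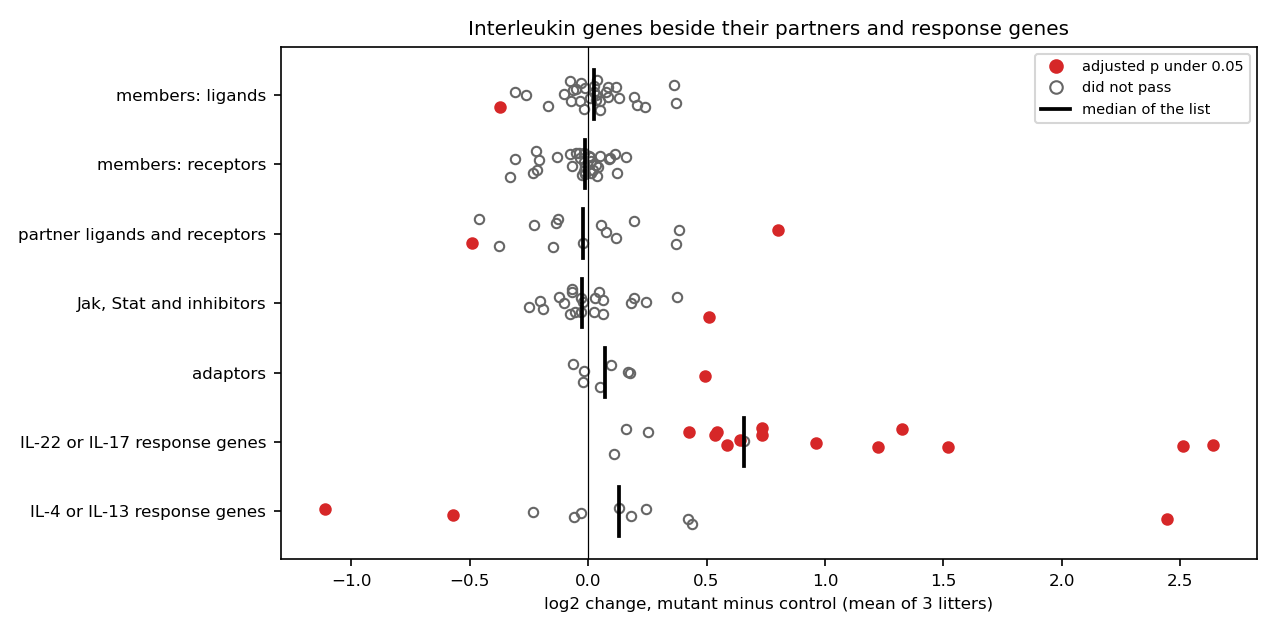
Log2 change (x axis, mutant minus control, mean of 3 litters) of single genes in each list (y axis). Filled red points passed an adjusted p of 0.05, open points did not, and black bars are list medians, 0.02 for ligands and 0.66 for genes that respond to IL-22 or IL-17.

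Among the cell type lists, those of muscle and vessels were lower in mutants, and they were not alone. The mean levels of fibroblast, interstitial cell of Cajal, macrophage and dendritic cell, mast cell and T cell lists were also lower in the mutant of each litter. Some of these means rested on few genes. In the mast cell list the median change was 0.01 and 5 of 9 changes were above 0, while Mcpt1 stood at -1.52 and Mcpt2 at -1.34. In the interstitial cell of Cajal list Ano1 stood at -1.31, beside Kit at 0.01 and Etv1 at -0.12. The median change of the T cell list was -0.07, with Cd4 the lowest at -0.43. Of 7 smooth muscle markers 5 fell, with a mean level of 11.5 to 11.97 in mutants and 12.2 to 12.3 in controls. Of 7 blood endothelium markers 5 fell, with 8.16 to 8.43 in mutants and 8.58 to 8.92 in controls. Natural killer cell markers had 0 of 6 passing, and 0 had an unadjusted p under 0.05 (limma), with 5.23 to 5.34 in mutants and 5.28 to 5.33 in controls. Of 6 B and plasma cell markers 0 passed (limma), 1 had an unadjusted p under 0.05 (Cd79b, lower), and the median change was 0.19, -0.16 and -0.53 in litters 1, 2 and 3. Of 3 interstitial cell of Cajal markers 1 fell, and of 5 enteric neuron and glia markers 0 passed, with 0 at an unadjusted p under 0.05 (limma).

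**Figure D4:**
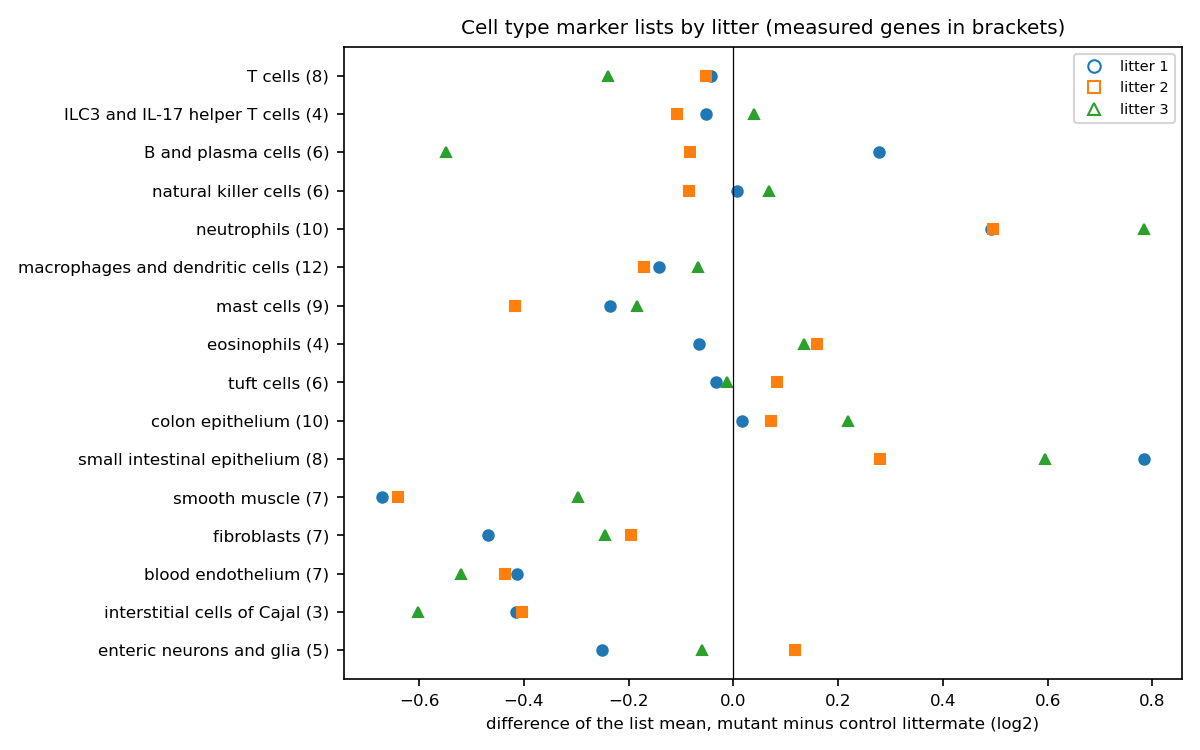
Difference of each marker list's mean level between the mutant and its control littermate (x axis, log2) for 16 cell type lists (y axis, measured genes in brackets). Symbols are litters. Neutrophil, small intestinal and colon epithelium lists lie above 0 in all 3 litters. Smooth muscle, endothelium, fibroblast, interstitial cell of Cajal, macrophage, mast cell and T cell lists lie below 0 in all 3 litters. A list mean can rest on few genes, as in the mast cell list, whose median change was 0.01. The B and plasma cell list is among those that differ in sign between litters.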

How the data were processed

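The deposited values are log2 expression values that the authors had made with RMA, per the submitters' processing notes; its version and the genome build are not stated in the sources available. The table held 35557 rows for 6 arrays. Symbols come from GEO's annotation of the platform. A single symbol stood on 21789 rows and several on 1621, while 12147 carried no name, and the row with the highest mean was kept for each of 19938 genes. The Entrez identifiers of 21698 rows matched RefSeq on GRCm38.p6 and 0 symbols changed. Mutant was compared with control in limma 3.58.1 (R 4.3.3; lmFit, eBayes, two-sided, Benjamini-Hochberg over 19938 genes, threshold 0.05) with litter as a fixed block, since the design text pairs littermates. The labels alone support the pairing: deviations of littermates from their group means had correlations of 0.0128, 0.00516 and 0.0613. Residual degrees of freedom were 2, and the prior shared by genes contributed 5.85. Fewer residual degrees of freedom were left with a litter left out, or with Xist and litter both in the model. Calls in those fits rest more on the prior. Errors are standard errors unless named. Array values carry no counts, so the number of arrays limits precision.

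Members were taken by symbol alone, though earlier results of these data were known, and the lists were written with those results known. Values by array are given for each member that passed, 12 further members with the smallest p and a change of one sign in 3 litters, and in each role list the members with the highest mean and the largest change. Up to 3 passing genes of each pathway list were named, with Ihh, Ptch1 and Gli1. Other genes named, and the alternatives with Xist, were chosen after values were seen. The fit was also run on simulated data with added changes of 0.5 or more in size. Every member but Il22ra2 changed by less, so that run does not show whether such changes could be found. Its outcome is not given here. Alternatives were other treatments of litter, variance, normalization, rows and dim genes, and each litter left out.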

Additional observations from a re-analysis of the deposited data

How the results depend on the processing

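The number of members that passed was 1 in the fit reported. It was 1 without the replicate block too (9 had an unadjusted p under 0.05), and 638 of all genes then passed, against 751 with it. The count was 0 in limma after quantile normalization (13 at an unadjusted p under 0.05), 0 over all rows of the table (8), 0 in the ordinary paired test without the shared variance (7) and 0 with the Xist level and no replicate block (9). It was 5 with array weights and 2 with the Xist level and the replicate block. Leaving out 1 litter gave 0 to 2: Il15 and Il22ra2 without litter 1, Il22ra2 without litter 2 and none without litter 3 (7 at an unadjusted p under 0.05). Over all genes 0 passed in the ordinary paired test (1969 at an unadjusted p under 0.05), 2 over all rows, 1246 with array weights and 1230 with the Xist level and the replicate block, and 546 to 798 with a litter left out. The cause of these shifts was not tested. The median change of members stayed within the spread between litters under all 15 alternatives. Genes that passed in no fit changed sign in some. Il17rc was 0.0492 with array weights and -0.120 to 0.0860 with a litter left out, Il25 was -0.0197 with array weights and -0.0888 to 0.142 with a litter left out, Il27 was -0.0491 to 0.00898 and Il10rb -0.0780 to 0.00132 with a litter left out, and Il6st was -0.0308 to 0.0699 with a litter left out and -0.00932 with and -0.00894 without the block in the fits with Xist. For the 20 members named for their values, 271 values kept direction and side of the threshold, 7 lost and 7 gained a call, and 7 changed sign. No background intensity was at hand, so for dim genes the signal limits what can be seen.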
